A study of Rattus norvegicus with 9 samples.

Results

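The genes examined here are the 6 that make up the interleukin-1 (IL-1) ligand, antagonist and receptor set of the rat: Il1a, Il1b, Il1rn, Il1r1, Il1r2 and Il1rap. They were chosen by name, with earlier results of these data known, and were represented by 10 probe sets of the 31042 tested, or 6 of the 14217 genes that had a probe set with a single gene symbol. Messenger RNA was measured on Affymetrix arrays in the tongues of male Sprague Dawley rats, with 3 arrays in each of 3 groups and 1 sample on each array. In the 4NQO+IL-1Ra group, rats drank water with 0.002% 4NQO, a DNA-damaging carcinogen under which the tongue epithelium passes through dysplasia to carcinoma, and received recombinant rat IL-1Ra by weekly injection under the tongue mucosa after the first 14 weeks. In the 4NQO group, rats drank the same carcinogen and, by the study's methods, were injected with saline, and normal rats drank distilled water alone. The methods describe anaesthesia and injection for both carcinogen groups and not for normal rats. Carcinogen and injection therefore cannot be told apart in the comparisons with normal tongues. The methods place the end of the experiment at week 22, whereas the labels describe killing at visible lesions between week 14 and week 22. Age was not given in the labels. As a model, the 4NQO tongues can hold lesions of different stage, and the stage of each sampled tongue is not known here. The design text of the series speaks of epithelia and fibroblasts, whereas every sample was labelled as tongue tissue. On all 9 arrays, 14 of 15 upper keratinocyte markers, 8 of 8 basal keratinocyte markers and 11 of 12 skeletal muscle markers were above the lower quartile of the array. The exceptions were Ivl and Myh7. In such whole tissue, fewer cells of a type and less RNA per cell cannot be told apart.

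IL-1α and IL-1β, the products of Il1a and Il1b, are the agonist ligands of the system. They bind the signalling receptor encoded by Il1r1, which then recruits the accessory protein encoded by Il1rap and passes the signal through MyD88 and IRAK kinases to NF-κB and MAP kinases. The signal is checked at the ligand level by the antagonist IL-1Ra, the product of Il1rn, which occupies the receptor without recruiting the accessory protein, and by the decoy receptor encoded by Il1r2, which binds ligand and lacks a signalling domain. Stratified epithelia such as that of the tongue hold IL-1α and an intracellular form of IL-1Ra in keratinocytes. IL-1β is a typical product of myeloid cells, and the study's staining also found it in oral epithelial cells of this rat model. The arrays measured the transcript of the rat's own Il1rn, not the injected protein.

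The sequences just before the start sites of the antagonist and of the agonist Il1b are shown because, with 1 bright probe set for each of the 6 genes, these stood at opposite ends of the comparison between 4NQO+IL-1Ra and 4NQO tongues. Each window holds the 250 bases before a start site in RefSeq annotation of the rat assembly GRCr8, written 5′ to 3′ on the strand of the gene. The Il1rn window is chr3:27520072-27520321 on the plus strand and lies inside the annotated span of the gene, and the Il1b window is chr3:137036582-137036831 on the minus strand. Capitals mark matches to 3 motifs searched on both strands: an NF-κB type motif (GGGNNNNNCC), an AP-1 type motif (TGANTCA) and the TATA box (TATAAA).
Il1rn: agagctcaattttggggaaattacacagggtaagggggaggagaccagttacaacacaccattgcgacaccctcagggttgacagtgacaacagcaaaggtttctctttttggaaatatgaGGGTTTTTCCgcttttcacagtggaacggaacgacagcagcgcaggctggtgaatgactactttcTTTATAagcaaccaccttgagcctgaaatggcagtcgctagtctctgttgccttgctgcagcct
Il1b: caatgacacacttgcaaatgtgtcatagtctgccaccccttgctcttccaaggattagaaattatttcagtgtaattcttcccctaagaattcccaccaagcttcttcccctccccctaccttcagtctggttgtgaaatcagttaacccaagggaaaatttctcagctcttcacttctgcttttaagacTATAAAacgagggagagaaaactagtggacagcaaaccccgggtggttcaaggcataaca
The Il1rn window held 1 NF-κB type match, 129 to 120 bases before the start, and a TATAAA on the opposite strand 64 to 59 bases before it. In the Il1b window the single match was a TATAAA, 60 to 55 bases before the start. The Il1a window, not printed, held 1 AP-1 type match 12 to 6 bases before the start and 2 TATA box matches, 32 to 27 bases before it and, on the opposite strand, 237 to 232 bases before it. The Il1r1 window held 1 NF-κB type match. The 2 overlapping windows of Il1rap held 8 and 14, counted on both strands, where most of them overlap. Of 33469 windows of the same length, 42.3% held the NF-κB type motif, 6.34% the AP-1 type motif and 12.9% the TATA box, so these matches describe the letters only. Windows were matched for 5 of the 6 genes, and Il1r2 is named only. Il1a and Il1b are neighbours on chromosome 3 with 0 annotated genes between them, and Il1r2 and Il1r1 lie on chromosome 9 with 2 annotated genes between them.

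Il1rn and Il1r2, the pair of genes whose products oppose IL-1, were higher in 4NQO+IL-1Ra tongues than in 4NQO tongues by 3.41-fold and 2.39-fold. They were the 2 of 10 probe sets that passed in this comparison at an adjusted p under 0.05, both higher. Over all 31042 probe sets, 2.33% passed in either direction and 1.59% were higher, by limma with Benjamini-Hochberg adjustment. Both member calls were lost on leaving out any 1 4NQO+IL-1Ra array. The agonist gene Il1a was also higher there, by 2.64-fold and 2.39-fold on its 2 probe sets, without passing (limma adjusted p = 0.108 and 0.0724). So was Il1rap, by 1.74-fold and 1.26-fold (limma adjusted p = 0.145 and 0.114). In 4NQO against normal tongues 0 of the 10 passed (14.9% of all probe sets did), with 5 at an unadjusted limma p under 0.05. In 4NQO+IL-1Ra against normal tongues 0 of the 10 passed (1.87% of all), with 4 at an unadjusted limma p under 0.05. The 3 comparisons share arrays, so they are given side by side and not as independent results.

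The values of all 10 probe sets on every array are shown in the plot of log2 intensity by group.

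**Figure D1:**
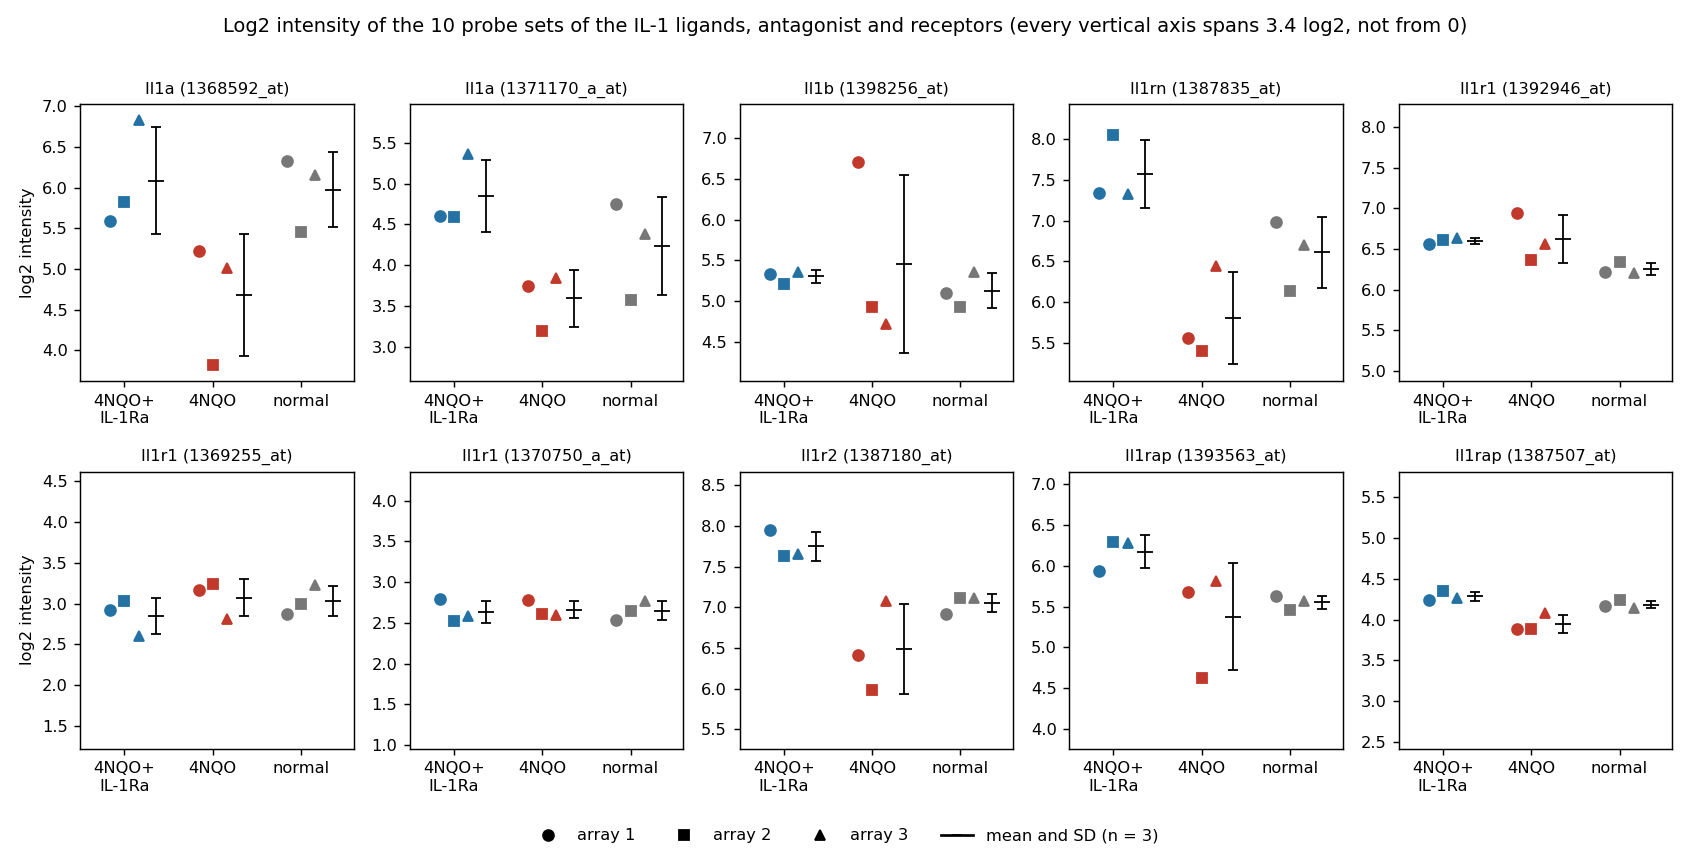
Log2 intensity of each probe set on each array, with the groups from left to right 4NQO+IL-1Ra, 4NQO and normal, marker shapes for arrays 1 to 3 and bars for the mean and SD of 3 arrays. Il1rn and Il1r2 lay higher on all 3 4NQO+IL-1Ra arrays than on any 4NQO or normal array, and 1 4NQO array lay far above the rest for Il1b.

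Il1a, the agonist that keratinocytes store, was at 5.59, 5.83 and 6.83 log2 on the 4NQO+IL-1Ra arrays, at 5.22, 3.82 and 5.01 on the 4NQO arrays and at 6.33, 5.45 and 6.15 on the normal arrays (probe set 1368592_at). The 4NQO arrays were the lowest 3 of the 9 and overlapped neither of the other groups, which overlapped each other. The mean was 4.68 ± 0.75 in 4NQO tongues and 5.98 ± 0.46 in normal tongues (SD, n = 3 each), a 2.45-fold lower level that did not pass (difference -1.29 log2, 95% interval -2.21 to -0.38, limma adjusted p = 0.0608). The 4NQO+IL-1Ra mean of 6.08 ± 0.66 was 2.64-fold above the 4NQO mean, which also did not pass (difference 1.40 log2, interval 0.48 to 2.32, limma adjusted p = 0.108). It differed from the normal mean by 0.11 log2 (interval -0.81 to 1.02, limma adjusted p = 0.902). Leaving out 4NQO+IL-1Ra array 3 brought the comparison of 4NQO with normal tongues past the threshold (limma adjusted p = 0.0446), and leaving out 4NQO array 2 narrowed the difference to -0.86 log2.

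The other Il1a probe set, 1371170_a_at, was dimmer and gave the same order of 4NQO+IL-1Ra over 4NQO. It read 4.60, 4.58 and 5.36 log2 in 4NQO+IL-1Ra tongues and 3.74, 3.19 and 3.85 in 4NQO tongues, with no overlap, and 4.75, 3.57 and 4.38 in normal tongues. The 4NQO+IL-1Ra arrays were 2.39-fold above the 4NQO arrays (limma adjusted p = 0.0724, or 0.0464 without normal array 2). On this probe set normal array 2 fell within the range of the 4NQO arrays, and 4NQO against normal was at -0.64 log2 (limma adjusted p = 0.187).

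Il1b, the other agonist gene, read 5.33, 5.21 and 5.36 log2 on the 4NQO+IL-1Ra arrays, 6.71, 4.93 and 4.72 on the 4NQO arrays and 5.10, 4.93 and 5.36 on the normal arrays. The 4NQO arrays spanned all the others: 4NQO array 1 was the highest of the 9 and 4NQO array 3 the lowest. The SD was 1.09 log2 in 4NQO tongues, against 0.08 in 4NQO+IL-1Ra and 0.22 in normal tongues. The group means of 5.30 in 4NQO+IL-1Ra and 5.46 in 4NQO tongues differed by -0.15 log2, with an interval from -1.08 to 0.78 (limma adjusted p = 0.879). In 4NQO against normal tongues the difference was 0.33 log2, with an interval from -0.60 to 1.26 (limma adjusted p = 0.618).

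The direction of Il1b turned with a single array. Without 4NQO array 1, Il1b was 0.30 log2 lower in 4NQO than in normal tongues (limma adjusted p = 0.204) and 0.47 log2 higher in 4NQO+IL-1Ra than in 4NQO tongues (limma adjusted p = 0.137), and neither passed. The same array carried the highest summed intensity of the 6 measured of 11 neutrophil markers, at 718 units, against 249 and 174 on the other 4NQO arrays. The sum ran from 170 to 308 in 4NQO+IL-1Ra tongues and from 158 to 177 in normal tongues. S100a9, a calcium-binding protein abundant in neutrophils, was at 8.81 log2 on 4NQO array 1 and at 7.28 and 6.14 on the other 4NQO arrays. The sum is linear, and S100a9 and S100a8 (7.71 log2) were the brightest of the 6 on 4NQO array 1, both above all normal arrays. There Csf3r, at 3.92 log2, also lay above the normal arrays, and Mmp8, at 3.38, lay within their range. Cxcr2 and Camp, at 4.52 and 3.39 log2, lay below all normal arrays (4.69 to 5.03 and 3.73 to 4.02). Of the 6 markers, 0 passed in 4NQO against normal tongues, 2 were below the lower quartile on all normal and all 4NQO+IL-1Ra arrays (Csf3r and Mmp8), and Mmp8 was so in 4NQO tongues too. Their part in the Il1b value was not tested.

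Il1rn, the antagonist gene, was at 7.34, 8.06 and 7.32 log2 on the 4NQO+IL-1Ra arrays, at 5.56, 5.40 and 6.45 on the 4NQO arrays and at 6.99, 6.14 and 6.70 on the normal arrays. Every 4NQO+IL-1Ra array lay above every array of the other groups, while the highest 4NQO array lay inside the normal range. The means were 7.57 ± 0.42 in 4NQO+IL-1Ra tongues, 5.81 ± 0.56 in 4NQO tongues and 6.61 ± 0.43 in normal tongues (SD, n = 3 each). In the order of levels, 4NQO+IL-1Ra came first, normal second and 4NQO last, and neither pair of neighbours differed beyond the test.

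The difference between 4NQO+IL-1Ra and 4NQO tongues was 1.77 ± 0.31 log2 (SE), with an interval from 1.07 to 2.47 (limma adjusted p = 0.0218). Against normal tongues, 4NQO+IL-1Ra tongues were 1.95-fold higher (0.96 log2, limma adjusted p = 0.115) and 4NQO tongues 1.75-fold lower (-0.81 log2, limma adjusted p = 0.107). The call depended on which array was left out. It was kept without any 1 normal array and without 4NQO array 3 (lowest limma adjusted p = 0.00605). It was lost on leaving out 4NQO+IL-1Ra array 1, 2 or 3 (limma adjusted p = 0.0613, 0.0892 and 0.0542) or 4NQO array 1 or 2 (0.0550 and 0.0699), while the difference stayed between 1.53 and 2.09 log2 over all 9 arrays left out in turn. It was also lost with only the 6 arrays compared (limma adjusted p = 0.0565) and by the methods' t-test after Benjamini-Hochberg adjustment, where 0 of all probe sets passed. When 4NQO array 3, the highest of its group, was left out, Il1rn was also lower in 4NQO than in normal tongues (-1.13 log2, limma adjusted p = 0.0323).

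Il1r2, the decoy receptor gene, read 7.95, 7.63 and 7.66 log2 in 4NQO+IL-1Ra tongues, 6.42, 5.98 and 7.08 in 4NQO tongues and 6.92, 7.11 and 7.11 in normal tongues. As for Il1rn, the 4NQO+IL-1Ra arrays were the highest 3 of the 9, and the highest 4NQO array reached into the normal range. The means were 7.75 ± 0.18, 6.49 ± 0.55 and 7.05 ± 0.11 in 4NQO+IL-1Ra, 4NQO and normal tongues (SD, n = 3 each). The difference between 4NQO+IL-1Ra and 4NQO tongues was 1.26 ± 0.23 log2 (SE), with an interval from 0.74 to 1.78 (limma adjusted p = 0.0252). Against normal tongues, 4NQO+IL-1Ra tongues were 1.63-fold higher (limma adjusted p = 0.120) and 4NQO tongues 1.47-fold lower (limma adjusted p = 0.129), and neither passed. The call was lost without 4NQO+IL-1Ra array 1, 2 or 3 (limma adjusted p = 0.0969, 0.0811 and 0.0682), 4NQO array 1 (0.0606) or normal array 3 (0.0518), and with only the 6 arrays compared (0.0931). On leaving out 4NQO array 3, 4NQO tongues passed as lower than normal tongues (-0.85 log2, limma adjusted p = 0.0159) and 4NQO+IL-1Ra tongues as higher (0.70 log2, limma adjusted p = 0.0302).

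Il1r1, the signalling receptor gene, varied least of the genes with a bright probe set. On 1392946_at it read 6.56, 6.61 and 6.63 log2 in 4NQO+IL-1Ra tongues, 6.94, 6.36 and 6.57 in 4NQO tongues and 6.21, 6.34 and 6.21 in normal tongues. Both carcinogen groups lay above every normal array and overlapped each other. The differences of 0.37 log2 in 4NQO against normal tongues and 0.34 log2 in 4NQO+IL-1Ra against normal tongues did not pass (limma adjusted p = 0.104 and 0.188). Between 4NQO+IL-1Ra and 4NQO tongues the difference was -0.03 log2, with an interval from -0.34 to 0.29 (limma adjusted p = 0.947). Without 4NQO array 2 the difference of 4NQO against normal tongues reached 0.50 log2 and passed (limma adjusted p = 0.0403). Over the alternatives other than arrays left out in turn, it ranged from 0.20 to 0.48 log2. That of 4NQO+IL-1Ra against normal tongues ranged from 0.21 to 0.35 log2. The other probe sets of Il1r1, 1369255_at and 1370750_a_at, were below the lower quartile of the array on all 9 arrays, so they bear little on the level of the gene.

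Il1rap, the accessory protein gene, was higher on all 3 4NQO+IL-1Ra arrays than on any other array by both of its probe sets, and passed in no comparison. Probe set 1393563_at read 5.94, 6.30 and 6.29 log2 in 4NQO+IL-1Ra tongues, 5.68, 4.62 and 5.82 in 4NQO tongues and 5.63, 5.46 and 5.56 in normal tongues. Its 4NQO arrays lay on both sides of the normal range, with array 2 far below the rest. The difference was 0.80 log2 in 4NQO+IL-1Ra against 4NQO tongues (limma adjusted p = 0.145) and 0.62 log2 in 4NQO+IL-1Ra against normal tongues (limma adjusted p = 0.203, or 0.0341 without 4NQO array 2). 4NQO against normal tongues gave -0.18 log2 (limma adjusted p = 0.675), which turned to 0.20 when 4NQO array 2 was left out. The dimmer 1387507_at read 4.24, 4.35 and 4.26 log2 in 4NQO+IL-1Ra tongues, 3.89, 3.89 and 4.08 in 4NQO tongues and 4.17, 4.24 and 4.14 in normal tongues, so that the lowest 4NQO+IL-1Ra and the highest normal array were equal to the decimals given. Here the 4NQO arrays lay below all the others, at 0.33 log2 between 4NQO+IL-1Ra and 4NQO tongues (limma adjusted p = 0.114, or 0.0440 without 4NQO array 3) and -0.23 log2 between 4NQO and normal tongues (limma adjusted p = 0.139).

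The size and precision of each difference are shown side by side in the plot of differences between groups.

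**Figure D2:**
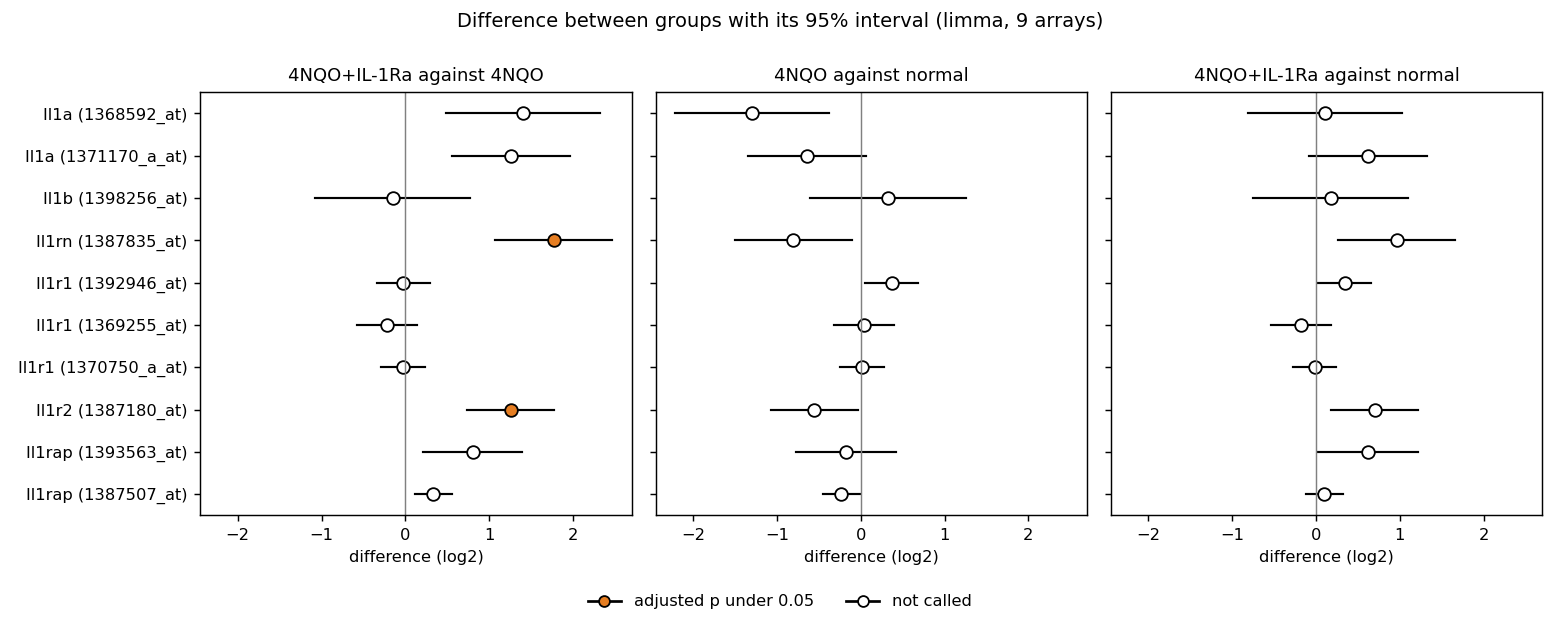
Difference in log2 intensity of each probe set in the 3 comparisons (horizontal axis), with the 95% interval from limma over 9 arrays and filled points where the adjusted p was under 0.05. Il1rn and Il1r2 between 4NQO+IL-1Ra and 4NQO tongues are the filled points, at 1.77 and 1.26 log2.

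Arrays of 4NQO+IL-1Ra and 4NQO tongues did not overlap for 6 of the 10 probe sets, all higher in 4NQO+IL-1Ra tongues: both sets of Il1a, Il1rn, Il1r2 and both sets of Il1rap. Over all probe sets 20.6% did not overlap in this comparison. The median difference of the 10 was 0.57 log2, against -0.02 over all probe sets. For 4NQO against normal tongues 3 of 10 did not overlap (38.2% of all), with Il1r1 higher and 1 set each of Il1a and Il1rap lower, and the median difference was -0.21 log2 (0.01 over all). For 4NQO+IL-1Ra against normal tongues 5 of 10 did not overlap (35.3% of all), each higher in 4NQO+IL-1Ra tongues, and the median was 0.26 log2 (-0.01 over all).

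The members did not move as a block within the 4NQO group. The lowest value of 6 of the 10 probe sets, those of Il1a, Il1rn, Il1r2 and Il1rap, fell on 4NQO array 2, whereas Il1b and the bright set of Il1r1 were highest on 4NQO array 1. Relative to the mean of the normal arrays, the change of Il1rn exceeded that of Il1b by 0.53, 1.36 and 0.48 log2 on the 4NQO+IL-1Ra arrays. On the 4NQO arrays this balance of antagonist over agonist was -2.63, -1.01 and 0.24 log2, so that it was negative on 4NQO arrays 1 and 2 and positive on array 3. The change of the decoy Il1r2 exceeded that of the signalling receptor Il1r1 by 0.61, 0.23 and 0.24 log2 on the 4NQO+IL-1Ra arrays, and the same quantity was -1.32, -1.17 and -0.28 on the 4NQO arrays. The change of Il1rn over that of Il1a differed less, at 0.86 ± 0.90 log2 in 4NQO+IL-1Ra and 0.49 ± 0.68 in 4NQO tongues (SD, n = 3 each), and overlapped between the groups.

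**Figure D3:**
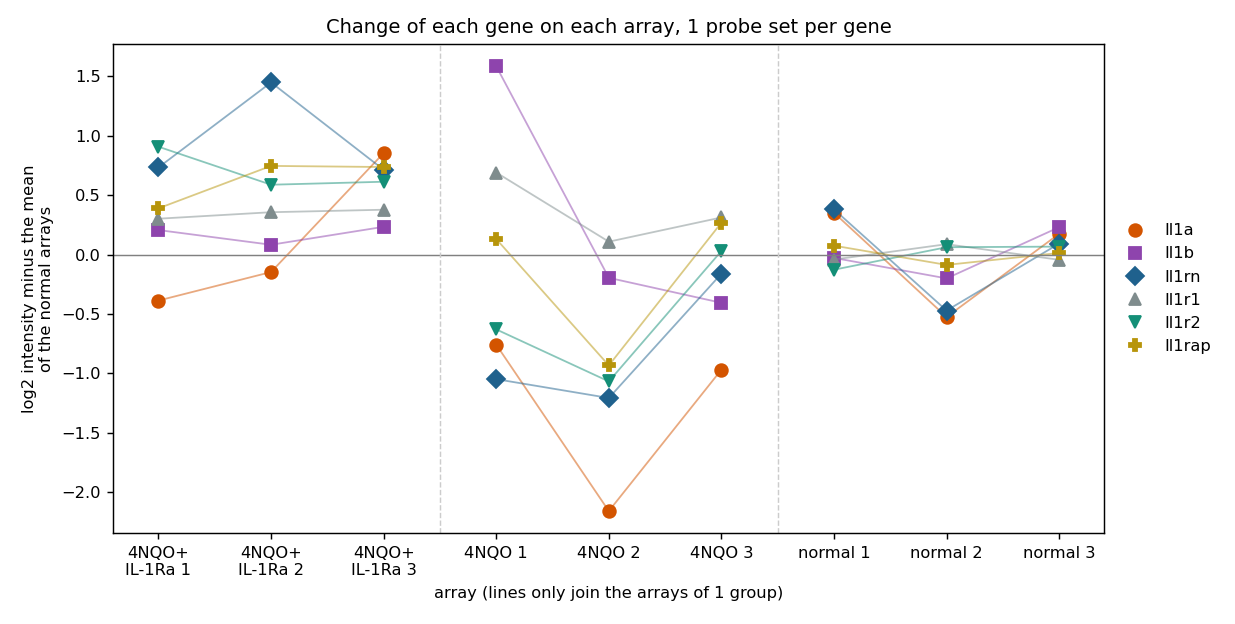
Log2 intensity of each gene minus its mean on the normal arrays (vertical axis), 1 probe set per gene, on each array from left to right in the order 4NQO+IL-1Ra, 4NQO and normal. On 4NQO array 1 Il1b and Il1r1 lie above 0 while Il1a, Il1rn and Il1r2 lie below it, and on 4NQO array 2 Il1a falls the furthest of the 6 genes.

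The summed intensity of markers of the upper, differentiating layers of the epithelium had the order of Il1rn and Il1r2, highest in 4NQO+IL-1Ra and lowest in 4NQO tongues. Over 15 measured of 19 genes it ran from 81341 to 82304 units in 4NQO+IL-1Ra tongues, from 22899 to 56755 in 4NQO tongues and from 65466 to 70866 in normal tongues, with the lowest value on 4NQO array 2. The sum is linear, so the brightest genes weigh most in it. In 4NQO+IL-1Ra against normal tongues all 15 estimates were above 0, but the median was only 0.19 log2 and 0 passed. All 15 estimates were above 0 in 4NQO+IL-1Ra against 4NQO tongues, with a median of 1.41 log2, and 2 passed (1.59% of all probe sets were higher). They were Ivl, which encodes the cornified envelope protein involucrin, 5.66-fold higher, and Ppl, which encodes periplakin, 3.82-fold higher (limma adjusted p = 0.0182 for both). In 4NQO against normal tongues 5 of the 15 fell and 0 rose (5.44% and 9.41% of all probe sets), with a median of -1.07 log2. Of the 15, 2 estimates were above 0, the highest for the keratin gene Krt1 (1.86 log2, limma adjusted p = 0.208). After quantile or cyclic loess normalization 2 fell and 0 rose, and without 4NQO array 2, 6 fell and 2 rose. With each array left out in turn, the number that rose in 4NQO+IL-1Ra against 4NQO tongues was 0 without 4NQO+IL-1Ra array 1, 2 or 3, 5 without 4NQO array 2 and 12 without 4NQO array 3. Over all probe sets the calls in this comparison also went up, from 722 to 2353 without 4NQO array 3. The number that fell in 4NQO against normal tongues ranged from 0 without normal array 3 to 9 without 4NQO array 3. None of the 15 was below the lower quartile on all arrays of a group. Their part in the values of Il1a, Il1rn, Il1r2 and Il1rap was not tested.

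The other cell type lists are given in the same way. Of 12 skeletal muscle markers 2 passed in 4NQO+IL-1Ra against 4NQO tongues, both lower: Tnnt1 3.53-fold and Ttn 1.64-fold (limma adjusted p = 0.0487 and 0.0494). The 12 had 2 estimates above 0 there, and sums from 62685 to 70306 units, against 67445 to 83948 in 4NQO and 71987 to 80096 in normal tongues. In 4NQO against normal tongues 3 of 4 B and plasma cell and 1 of 10 T and NK cell markers fell (5.44% of all probe sets). Among those that fell, Cd79b was below the lower quartile on all 4NQO arrays, at 3.33 to 3.42 log2, and Cd4 on 4NQO array 2. Ms4a1 and Mzb1 lay above it on all 9 arrays, Ms4a1 narrowly in 4NQO tongues (3.66 to 3.77 log2). The calls of these muscle, B and plasma cell and T and NK cell markers were kept on 1 to 7 of 9 arrays left out in turn. The summed intensity of 13 macrophage markers ran from 5118 to 7361 units in 4NQO+IL-1Ra tongues, from 1961 to 5443 in 4NQO tongues and from 3592 to 6098 in normal tongues, and 0 of the 13 passed in any comparison over 9 arrays. In 4NQO+IL-1Ra against 4NQO tongues 12 of the 13 estimates were above 0, with a median of 0.74 log2. Without 4NQO array 1, 5 of the 13 fell in 4NQO against normal tongues and 3 rose in 4NQO+IL-1Ra against 4NQO tongues. With each array left out, 851 to 4417 of all probe sets passed in the former comparison and 184 to 2353 in the latter. Of 9 fibroblast markers 6 fell in 4NQO against normal tongues (5.44% of all probe sets), with a median of -1.08 log2. None of the 9 passed by limma in 4NQO+IL-1Ra against 4NQO tongues, where all 9 estimates were above 0 with a median of 0.71 log2, and the list had sums from 16298 to 20068 units in 4NQO+IL-1Ra, from 8425 to 17432 in 4NQO and from 21768 to 25032 in normal tongues. The 6 became 1 without normal array 1, 2 or 3, and 2 rose in 4NQO+IL-1Ra against 4NQO tongues without 4NQO array 1. Of 8 basal keratinocyte markers 4 rose in 4NQO against normal tongues (9.41% of all probe sets). Their sums ran from 16498 to 20721 units in 4NQO+IL-1Ra, from 15853 to 28606 in 4NQO and from 8875 to 14615 in normal tongues. In 4NQO+IL-1Ra against normal tongues 7 of the 8 estimates were above 0, with a median of 0.66 log2, and 0 passed. The 4 became 2 without normal array 2 or 3 or after cyclic loess normalization. Cxcr2, a chemokine receptor of neutrophils and the 1 of 6 neutrophil markers that passed in 4NQO+IL-1Ra against 4NQO tongues, rose 2.62-fold (limma adjusted p = 0.0351, a call kept on 3 of 9 arrays left out in turn and lost with array weights and with only the 6 arrays compared). Over all probe sets 1.59% passed as higher in this comparison. The neutrophil list had 3 of 6 estimates above 0 there, with a median of -0.03 log2 and the lowest, for S100a9, at -1.10 log2. The 3′ over 5′ signal of the hexokinase control, a sign of RNA integrity, was 1.80 to 2.20 log2 in 4NQO+IL-1Ra, 1.29 to 1.78 in 4NQO and 1.47 to 1.53 in normal tongues. The same quantity of the actin control was 0.98 to 1.27 log2 in 4NQO+IL-1Ra and 1.07 to 1.29 in 4NQO tongues, above all normal tongues at 0.74 to 0.86. The parts of these in the values of the IL-1 genes were not tested.

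**Figure D4:**
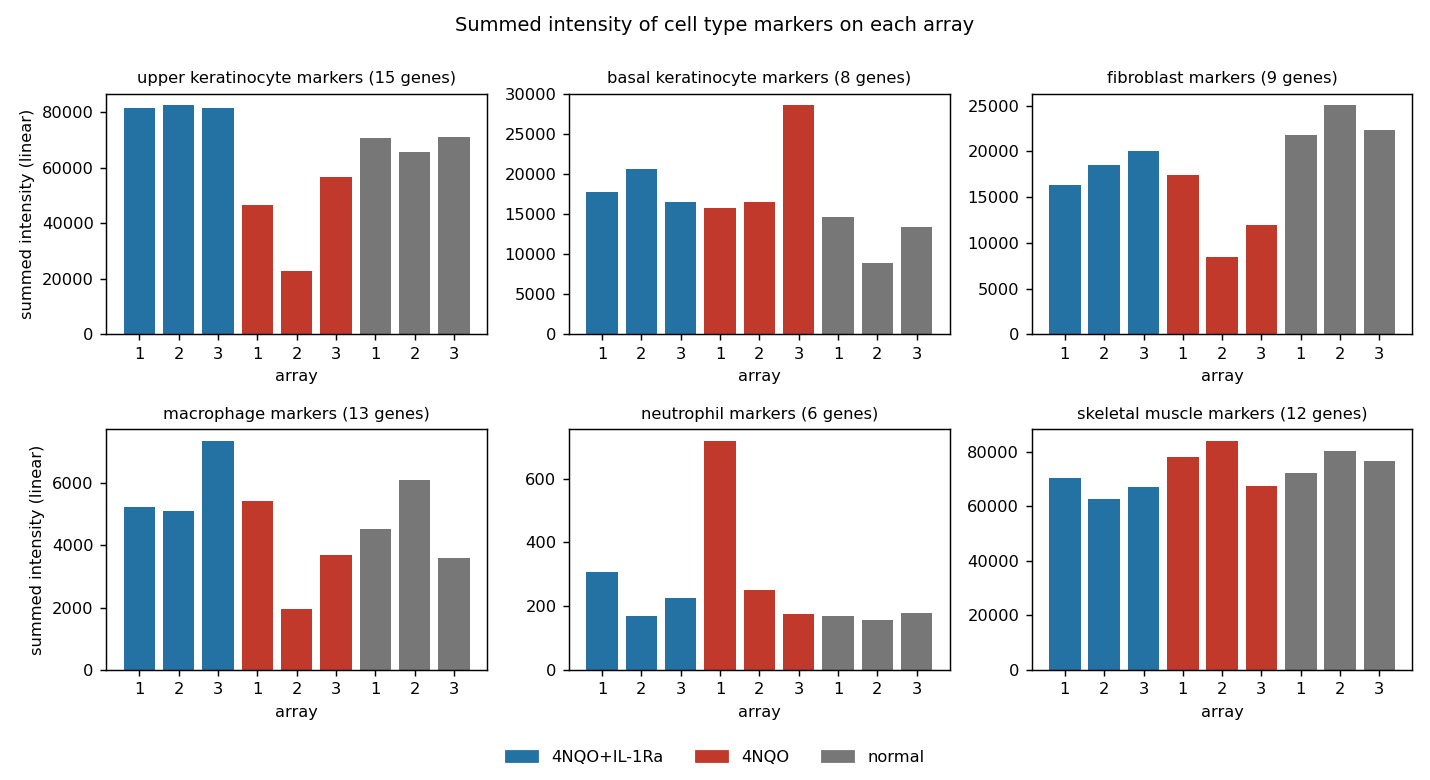
Summed linear intensity of 6 lists of cell type markers on each array (vertical axes from 0), with arrays of 4NQO+IL-1Ra, 4NQO and normal tongues from left to right. The upper keratinocyte sum is lowest on 4NQO array 2, at 22899 units, and the neutrophil sum highest on 4NQO array 1, at 718 units.

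Among the other cytokines of the IL-1 family, 5 of 8 listed genes were measured, and the IL-36 pair was the one that passed. Il36b, an agonist of the IL-36 receptor, read 7.27, 7.92 and 7.19 log2 in 4NQO+IL-1Ra tongues, 5.13, 3.82 and 6.06 in 4NQO tongues and 7.96, 6.33 and 7.90 in normal tongues. It fell 5.26-fold in 4NQO against normal tongues (limma adjusted p = 0.0224) and was 5.49-fold higher in 4NQO+IL-1Ra than in 4NQO tongues without passing (limma adjusted p = 0.0530). Il36rn, which encodes the IL-36 receptor antagonist, read 8.86, 9.23 and 8.98 log2 in 4NQO+IL-1Ra tongues, 7.44, 6.70 and 8.14 in 4NQO tongues and 8.93, 7.89 and 8.63 in normal tongues. It rose 3.02-fold in 4NQO+IL-1Ra against 4NQO tongues (limma adjusted p = 0.0456), again with its lowest value on 4NQO array 2. The Il36b call was lost without normal array 1 or 3 (highest limma adjusted p = 0.0920), and the Il36rn call was kept only without normal array 2 or 4NQO array 3, at 1.23 to 1.95 log2 over the 9 arrays left out. The Il36rn call was also lost with log2(intensity + 16), with trend and robust options in limma and with only the 6 arrays compared. Without 4NQO array 3, Il36b and Il18 also passed as higher in 4NQO+IL-1Ra than in 4NQO tongues (2.98 and 0.85 log2, limma adjusted p = 0.0156 and 0.0356), and Il36b did so without normal array 2 (0.0403). Il18, Il33 and the IL-18 inhibitor gene Il18bp passed in no comparison over all 9 arrays, with differences from -0.20 to 0.72 log2.

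The remaining receptors of the family, the ST2 gene Il1rl1, the IL-36 receptor gene Il1rl2 and the inhibitory Sigirr, were 3 of 7 listed and passed in no comparison over all 9 arrays, while 1 of the 3 fell without 4NQO array 1 (4NQO against normal) and 1 without 4NQO array 3 (4NQO+IL-1Ra against normal). Il1rl2 came closest, at -0.43 log2 in 4NQO against normal tongues (limma adjusted p = 0.0543). Of 10 measured of 17 genes for the processing and release of IL-1, 2 rose in 4NQO against normal tongues (9.41% of all). They were the protease genes Capn1 (1.37-fold, limma adjusted p = 0.0170) and Casp8 (1.46-fold, limma adjusted p = 0.0308), and 0 of the 10 passed in the other comparisons. Each call was lost without some arrays, Capn1 without normal array 2 or 3 and Casp8 without normal array 1 or 3 or 4NQO array 1 or 3 (highest limma adjusted p = 0.0768 and 0.112). After quantile or cyclic loess normalization 0 of the 10 rose by limma. Calpain cleaves the IL-1α precursor. Casp1, whose product cleaves the IL-1β precursor, was at 5.61 ± 0.36 log2 in 4NQO+IL-1Ra, 5.73 ± 0.32 in 4NQO and 5.77 ± 0.21 in normal tongues (SD, n = 3 each).

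Downstream of the receptor, 25 of 28 listed signalling genes were measured. In 4NQO against normal tongues 7 rose and 0 fell, with a median of 0.20 log2 against 0.01 over all probe sets, of which 9.41% rose and 5.44% fell. They were the MAP kinase kinase gene Map2k6 (1.86-fold, limma adjusted p = 0.00629), Nfkb2, which encodes an NF-κB subunit precursor (1.84-fold, 0.0134), the NF-κB inhibitor Nfkbia (1.84-fold, 0.0140), the receptor-associated kinase gene Irak1 (1.46-fold, 0.0172), Mapk14, Nfkbiz and Ikbkb. With each array left out in turn, Map2k6 passed on all 9, Nfkb2 and Nfkbia on 8 and Irak1 on 7, and the count of 7 ranged from 2, without normal array 2 or 3, to 8, without 4NQO array 2. After quantile or cyclic loess normalization 3 rose and 1 fell, and Irak1, Mapk14, Nfkbiz and Ikbkb lost their calls. Between 4NQO+IL-1Ra and 4NQO tongues 1 was higher in 4NQO+IL-1Ra tongues and 1 lower, or 3 and 1 after quantile or cyclic loess normalization. Of all probe sets, 2.33% passed there in either direction. Myd88, the adaptor that links the IL-1 receptor to its kinases, read 9.61, 9.34 and 9.54 log2 in 4NQO+IL-1Ra tongues, 8.82, 8.43 and 8.82 in 4NQO tongues and 8.57, 8.58 and 8.55 in normal tongues. It rose 1.75-fold against 4NQO tongues and 1.90-fold against normal tongues (limma adjusted p = 0.0155 and 0.0345). Map2k6 fell 1.81-fold in 4NQO+IL-1Ra against 4NQO tongues (limma adjusted p = 0.0139), at 6.24, 6.11 and 6.59 log2 in 4NQO+IL-1Ra, 7.30, 7.14 and 7.07 in 4NQO and 6.23, 6.26 and 6.32 in normal tongues. In 4NQO+IL-1Ra against normal tongues 3 rose, Myd88, Ikbkb and Mapk14, and 0 fell (1.33% and 0.541% of all probe sets). Against 4NQO tongues, Myd88 lost its call without 4NQO+IL-1Ra array 1 or 3 and Map2k6 without 4NQO+IL-1Ra array 1 or 2 (highest limma adjusted p = 0.0646 and 0.0624), and both lost it with only the 6 arrays compared. Against normal tongues the count was 0 without any 1 array of those groups, 1 without 4NQO array 1, 5 without 4NQO array 2 and 7 without 4NQO array 3, and 1 after quantile or cyclic loess normalization, where Ikbkb and Mapk14 lost their calls.

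Of 25 genes that IL-1 is known to induce, 3 rose and 3 fell in 4NQO against normal tongues (9.41% and 5.44% of all). The median of the 25 was 0.09 log2. Those that rose were the endothelial adhesion gene Sele (limma adjusted p = 0.00422), Icam1 (2.22-fold, 0.00805) and Lcn2, which encodes an iron-sequestering protein (3.25-fold, 0.0280). Sele was below the lower quartile on all normal arrays, at 3.11 to 3.19 log2, so its fold has only a lower bound, and its 4NQO mean of 5.30 log2 was 2.92-fold above the mean lower quartile of those arrays. Those that fell were Nos2, Lif and Tnf, by 0.47, 0.51 and 0.61 on the log2 scale, of which Lif was below the lower quartile in every group. Sele and Icam1 passed on all 9 arrays left out in turn and Lcn2 on 5, whereas Nos2, Lif and Tnf passed on 3, 2 and 2. Lcn2 lost its call with log2(intensity + 16) and with only the 6 arrays compared. After quantile or cyclic loess normalization 3 rose and 1 fell, with the calls of Lif and Tnf lost. Without 4NQO array 2, 6 rose and 1 fell, the 6 including Cxcl1 and Ccl20, both chemokine genes, and Ptgs2 (1.80, 1.85 and 1.86 log2, limma adjusted p = 0.0179, 0.0169 and 0.0364). In 4NQO+IL-1Ra against 4NQO tongues 0 of the 25 passed by limma over all 9 arrays (2.33% of all probe sets did). Their median was 0.01 log2, against -0.02 over all probe sets. Of the 25, 13 were above the lower quartile of the array on all 9 arrays. On all 4NQO+IL-1Ra arrays 7 were below it, and on all 4NQO arrays 3. For such dim genes the lack of a call says little about a change. Sele was closest, 2.04-fold lower in 4NQO+IL-1Ra tongues (limma adjusted p = 0.0770), at 4.24, 3.90 and 4.68 log2, against 5.44, 4.69 and 5.78 in 4NQO tongues. Endothelial markers moved with Sele in 4NQO against normal tongues, where 4 of 6 measured rose (9.41% of all probe sets). The 4 became 2 without normal array 1, 0 without normal array 3, and 1 after quantile or cyclic loess normalization, with Pecam1, Kdr and Vwf lost. The summed intensity of the 6 ran from 1654 to 2219 units in 4NQO, against 1192 to 1372 in normal tongues. In 4NQO+IL-1Ra against 4NQO tongues 0 of the 6 passed and 0 estimates were above 0, with a median of -0.52 log2. The sums in 4NQO+IL-1Ra tongues ran from 1216 to 1621 units. The part of the endothelial markers in the values of Sele was not tested. Ptgs2, the prostaglandin synthase gene, was at 5.97 log2 on 4NQO array 1, the array highest for Il1b, and at 2.84 and 4.03 on the other 4NQO arrays. Without 4NQO array 2, the array lowest for most of the members, 3 of the 25 passed as lower in 4NQO+IL-1Ra than in 4NQO tongues: Lcn2, Sele and Cxcl1, at -1.83, -1.34 and -1.86 log2 (limma adjusted p = 0.0161, 0.0196 and 0.0440). In 4NQO+IL-1Ra against normal tongues 1 of the 25 rose (1.33% of all probe sets). It was Icam1 (1.84-fold, limma adjusted p = 0.0498, kept on 2 of 9 arrays left out and lost after quantile or cyclic loess normalization).

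**Figure D5:**
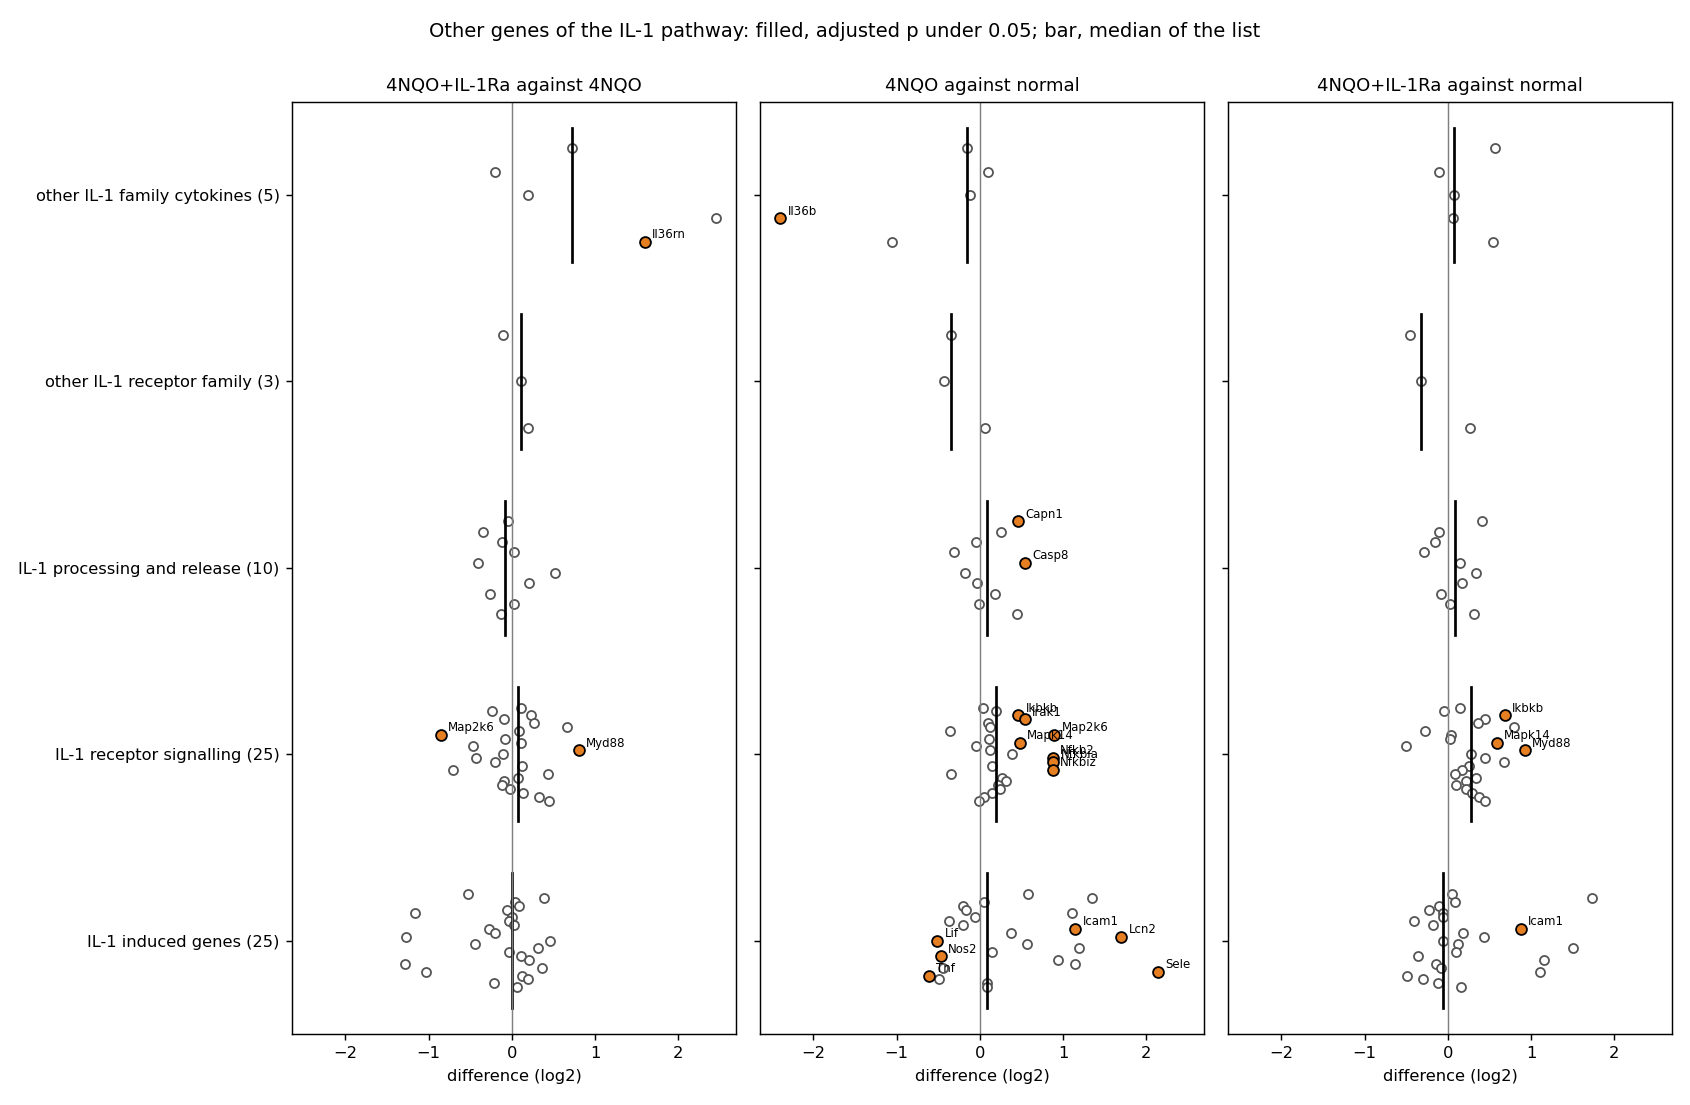
Difference in log2 intensity of the measured genes of 5 lists of the IL-1 pathway (horizontal axis) in the 3 comparisons, with filled and named points where the limma adjusted p was under 0.05 and a bar at the median of each list. The signalling list holds 7 filled points to the right of 0 in 4NQO against normal tongues, and the induced genes hold none in 4NQO+IL-1Ra against 4NQO tongues.

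The genes whose levels followed those of the members most closely were ranked by Pearson's r over the 9 arrays among 10974 genes, as a description. The arrays share their groups, so a gene that differs between groups in the same way ranks high. Il1rn was followed most closely by Atox1 (r = 0.98, Spearman's rho = 1.0), Prkch, Stk4, Ankrd13c and Def8. Il1r2 was followed by Slc27a4 (r = 0.98, rho = 0.93), Tm7sf2, Zfp800, Prss8 and Crybg2. For Il1a the list was Hsd11b2 (r = 0.96, rho = 0.93), Atp7a, Pon2, Lynx1 and Inpp5b, and for Il1rap it was Ormdl2 (r = 0.98, rho = 0.98), Vcf2, Slc38a9, Smap1 and Cklf. Il1b was followed by Abca7 (r = 0.92, rho = 0.68), Lbh, Tent5c, Tnfaip2 and Manbal, where the lower rank correlation goes with the single high 4NQO array. Il1r1 was followed by Map7d1 (r = 0.98, rho = 0.93), Hdgfl3, Aimp2, Ccnd3 and Fbxw11. Among the members themselves, Il1rn and Il1r2 were the most alike (r = 0.88, rho = 0.83), although Il1r2 ranked 307 of the 10974 genes in likeness to Il1rn. The agonist Il1b and the antagonist Il1rn were at r = -0.22 and rho = 0.23.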

How the data were processed

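RNA of 9 tongue samples was hybridised, biotin-labelled, to Affymetrix rat arrays. The authors deposited 1 linear intensity per probe set and array. By the submitters' processing notes these came from RMA, which corrects background, equalises array distributions and summarises probes, in Affymetrix Expression Console. Versions are not given in the sources used here. RMA can hide a shift common to most genes. Median intensity was 37.5 to 38.6 units per array, and 0 value columns lacked a sample. The upper quartile was 7.04 to 7.08 log2 on normal arrays and 7.16 to 7.28 on the arrays of the other groups.

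Of 31099 probe sets, 57 controls were left out and the log2 of the intensity was taken without a filter on dim values. GEO's platform annotation gave 20826 probe sets a single gene symbol, 436 several and 9780 none, and genes were named from the first kind only. The probe set of highest mean stood for a gene, and its other probe sets are given beside it.

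Groups were taken from the treatment labels. Array numbers follow accession order and pair nothing. The labels do not say that samples came from separate animals, so p-values measure the spread between these samples, and the number of arrays limits precision. A model of 3 group means over all 9 arrays was fitted with limma 3.58.1 (R 4.3.3, 6 residual and 4.01 prior degrees of freedom), two-sided, with Benjamini-Hochberg adjustment over 31042 probe sets in each comparison at a threshold of 0.05. The procedure was tested on simulated data. The alternatives were quantile, cyclic loess and median scaling, log2(intensity + 16), leaving out the 40% dimmest probe sets, eBayes with trend and robust options, array weights, only the 6 arrays compared, the methods' t-test, other probe sets and each array left out in turn. They were extended to the genes of the lists that passed after the data were seen. Calls by the methods' t-test were made here after Benjamini-Hochberg adjustment, which the methods do not name.

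The members and gene lists were chosen with earlier results of these data known. The genes named were all 6 members, the 5 genes most like each member, and of each list up to 4 with the lowest adjusted p in a comparison. Members of those lists named beyond this rule (Il18, Il33, Il18bp, Casp1, Sigirr, Il1rl1, Il1rl2, Mapk14, Nfkbiz, Ikbkb, Lif, Tnf, Ptgs2, Cxcl1, Ccl20, Krt1, Myh7, S100a8, S100a9, Camp and the dim Csf3r and Mmp8) were chosen after their values were seen. A probe set was called dim where it was below the lower quartile of its array on all arrays of a group. Promoter sequences came from RefSeq (GRCr8). Figures were drawn with matplotlib 3.10.9.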

Additional observations from a re-analysis of the deposited data

How the results depend on the processing

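Of 540 member results under alternatives, 489 kept their direction and side of the threshold, 14 lost a call, 14 gained one and 23 turned direction, none of these past the threshold. Of 913 results of list genes, an alternative added after the data were seen, 562 kept the call, 351 lost it and 0 turned. Of 51 list calls, 28 were kept after quantile and 27 after cyclic loess normalization and 29 with only the 6 arrays compared. By the methods' t-test 0 were kept after Benjamini-Hochberg adjustment, which the methods do not name. The 2 member calls in 4NQO+IL-1Ra against 4NQO tongues became 0 with only the 6 arrays compared (Il1rn adjusted p = 0.0565, Il1r2 0.0931) and by the methods' t-test after Benjamini-Hochberg (0.326 and 0.350), and ranged from 0 to 3 with each array left out. With array weights 2 members passed in 4NQO against normal tongues (Il1r1, Il1r2) and 2 in 4NQO+IL-1Ra against normal tongues (Il1rn, Il1r2). With only the 6 arrays compared, 2 passed in 4NQO+IL-1Ra against normal tongues (Il1r2, Il1rap). With each array left out these counts ranged from 0 to 2 and from 0 to 1.

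Over all probe sets, 4610 passed in 4NQO against normal tongues (2922 higher), against 2821 (1463 higher) after quantile and 2480 (1182 higher) after cyclic loess normalization. By the methods' t-test 1 passed after Benjamini-Hochberg adjustment, as used for all counts by that test here. With each array left out, 851 (without normal array 3) to 4417 passed. For 4NQO+IL-1Ra against 4NQO tongues 722 passed, against 195 with only the 6 arrays compared, 0 by the methods' t-test (3737 at an unadjusted p under 0.05) and 184 (without 4NQO+IL-1Ra array 2) to 2353 (without 4NQO array 3) with each array left out. For 4NQO+IL-1Ra against normal tongues 581 passed (413 higher), against 203 (94 higher) after quantile and 97 (34 higher) after cyclic loess normalization, 1157 with log2(intensity + 16), 3556 with array weights, 2714 with only the 6 arrays compared, 109 by the methods' t-test and 0 (without any 1 normal array, with 4790 to 5797 at an unadjusted limma p under 0.05) to 2084 (without 4NQO array 3) with each array left out. Fewer arrays leave fewer degrees of freedom, and the other causes were not tested.

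Directions turned for values near 0. In 4NQO against normal tongues the ranges with each array left out were -0.30 to 0.69 log2 for Il1b, -0.40 to 0.20 for Il1rap (1393563_at), and -0.042 to 0.17 and -0.046 to 0.074 for the dim Il1r1 sets 1369255_at and 1370750_a_at. Between 4NQO+IL-1Ra and 4NQO tongues they were -0.52 to 0.47 for Il1b, -0.16 to 0.13 for Il1r1 (1392946_at, and 0.004 after quantile and 0.0391 after cyclic loess normalization) and -0.11 to 0.0305 for 1370750_a_at. Between 4NQO+IL-1Ra and normal tongues they were -0.27 to 0.35 for Il1a (1368592_at, and -0.043 with array weights) and -0.0935 to 0.0446 for 1370750_a_at (0.0062 after quantile, 0.0297 after cyclic loess normalization). There, 0.34 for the bright Il1r1 set stood against -0.18 and -0.0153 for the dim sets. No paired analysis was possible because the labels give no replicate numbers shared between the groups.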
